A study of Mus musculus with 7 samples.

Results

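Anti-V5 chromatin immunoprecipitation (ChIP) of wild-type mouse tissue was compared, gene by gene, with unprecipitated input chromatin. The wild-type tissue holds no V5 tag, so the antibody had no engineered epitope to bind. Genes were taken when they held 70 or more counts summed over the 3 wild-type ChIP libraries and the 1 input library, which left 14340 of the 27179 genes in the count table. All libraries came from the 1st and 2nd pharyngeal arches of C57BL/6 embryos at embryonic day 10.5 (E10.5). The wild-type ChIP libraries carried the unmodified Kat6a gene. The input, which saw no antibody, came from arches homozygous for a Kat6a allele whose protein ends in a Flag-V5-BIO tag, and 3 further ChIP libraries from tagged arches are given for reference. Wild-type chromatin has no input of its own here, so the effect of immunoprecipitation cannot be told apart from that of genotype, and the single input is assumed in every test to vary like the ChIP libraries. No label says whether the replicates were separate embryos or pools, and the p-values therefore reflect only how much these libraries vary, which may be technical variation.

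Kat6a encodes MOZ, a histone acetyltransferase that works in a complex with BRPF scaffold proteins and is needed for craniofacial development. In a ChIP experiment a sample without the epitope shows which DNA is carried along by beads, antibody and washing. Input chromatin shows instead which DNA was present, sheared and amplified before any selection. Both kinds of library are used as controls, and they need not give the same read density along the genome.

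The wild-type libraries held 1288732, 1327452 and 2504595 counts within genes, against 3488745 in the input. Values are counts scaled to a library of 1e+06 (CPM) of each library's total, and CPM divided by gene length in kilobases (density) where genes of unlike length are compared. The 3 wild-type libraries differed from each other by more than counting error, with chi-square values of 5.15 to 5.79 per degree of freedom, and differed from the input by 11.9 to 13.7 per degree of freedom. At the edge of the choice, 69 genes with exactly 70 counts were inside and 69 genes with 69 counts were outside. Of the first, 12 lay above the input in all 3 wild-type libraries and 28 below it, and of the second, 18 above and 15 below.

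The immunoprecipitate of wild-type arches held more reads than input in 139 genes and fewer in 157, with edgeR (quasi-likelihood, adjusted p below 0.05). The genes that rose were mostly long and included Arhgap15, Syt1, Zbtb20 and Trps1. The genes that fell included Chl1, Gucy1a2, Catsperb and members of the Skint, vomeronasal receptor and cytochrome P450 families. These calls are 0.969% and 1.09% of the genes tested. In each of the 139 and each of the 157 genes, all 3 wild-type libraries lay on the called side of the input. The test takes its spread from the same 3 libraries, so this follows closely from the call and is a description only. Without a test, 3780 genes (26.4%) lay above the input in all 3 wild-type libraries and 4223 genes (29.4%) lay below it in all 3. The counts of calls depended on the fit: they were 3 higher and 15 lower when the 3 tagged ChIP libraries joined the fit, and 10 and 43 without wild-type replicate 1. Among the genes described with values here, those that rose and passed also without replicate 1 were Arhgap15, Syt1, Zbtb20, Trps1, Dcc and mt-Rnr2. Those that fell and are given with CPM here passed without it, with the exceptions stated beside their values.

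Fold changes in the genes that rose ran from 0.56 to 3.83 on the log2 scale, with a median of 0.92. In the genes that fell they ran from -2.73 to -0.49, with a median of -1.25. Of the genes that rose, 131 were annotated as protein-coding and 4 as long non-coding RNA genes. Of the genes that fell, 129 were protein-coding and 14 were long non-coding RNA genes. Of all 14340 tested genes, 13003 were protein-coding and 852 were long non-coding RNA genes. The span of 101 of the 137 named genes that rose and 85 of the 148 named genes that fell overlapped another gene. Among all named tested genes the share was 47.5%. Reads in such overlaps cannot be assigned to either gene here. Among all 14340 genes the median log2 fold change was 0.02.

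Long genes with small p-values were found among those that rose. Arhgap15 (chromosome 2, 43748798 to 44395953, GRCm38), a GTPase-activating protein for Rac, held 764, 744 and 748 CPM after immunoprecipitation and 382 CPM in the input. All 3 wild-type values were close to each other and above the input, with a log2 fold change of 1.00 (SE 0.15, adjusted p = 0.000665). Syt1 (chromosome 10, 108497650 to 109010980), the calcium sensor of synaptic vesicle release, held 571, 623 and 606 CPM against 301 CPM, a log2 fold change of 1.02 (SE 0.16, adjusted p = 0.000963). Zbtb20 (chromosome 16, 42875689 to 43634392), a zinc finger transcriptional repressor, held 362, 392 and 402 CPM against 169 CPM. Its log2 fold change was 1.21 (SE 0.19, adjusted p = 0.000892). Trps1 (chromosome 15, 50654757 to 50890631), a GATA-type repressor of skeletal development, held 358, 310 and 308 CPM against 140 CPM, a log2 fold change of 1.24 (SE 0.20, adjusted p = 0.00151). The first 3 of these also passed with the tagged libraries in the fit, at adjusted p = 0.0291 for Arhgap15 and 0.0434 for both Syt1 and Zbtb20, and Trps1 did not (adjusted p = 0.112).

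The largest fold changes upward fell on genes with few input reads. Slitrk2 and Lpar4, on chromosome X, encode a neuronal adhesion protein and a lysophosphatidic acid receptor. Slitrk2 held 27, 15 and 74 counts in the wild-type libraries against 5 in the deeper input, a log2 fold change of 3.83 (SE 0.98, adjusted p = 0.0400). Lpar4 held 28, 16 and 64 counts against 5, with 3.77 (SE 0.98, adjusted p = 0.0434). Neither passed without wild-type replicate 1 (adjusted p = 0.130 and 0.139). Leprot, which encodes a regulator of leptin receptor traffic, held 96.2, 114 and 39.1 CPM against 14.9 CPM in the input. Its replicate 3 stood well below the other two, and the log2 fold change was 2.48 (SE 0.51, adjusted p = 0.0107). In 6 of the 139 genes that rose, replicate 3 was at least 1.5 times below both other wild-type libraries. Itgb8, an integrin subunit that activates TGF-beta, held 90.0, 76.8 and 99.4 CPM against 28.1 CPM, and Mroh2a 89.2, 88.9 and 88.2 CPM against 28.4 CPM.

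**Figure D1:**
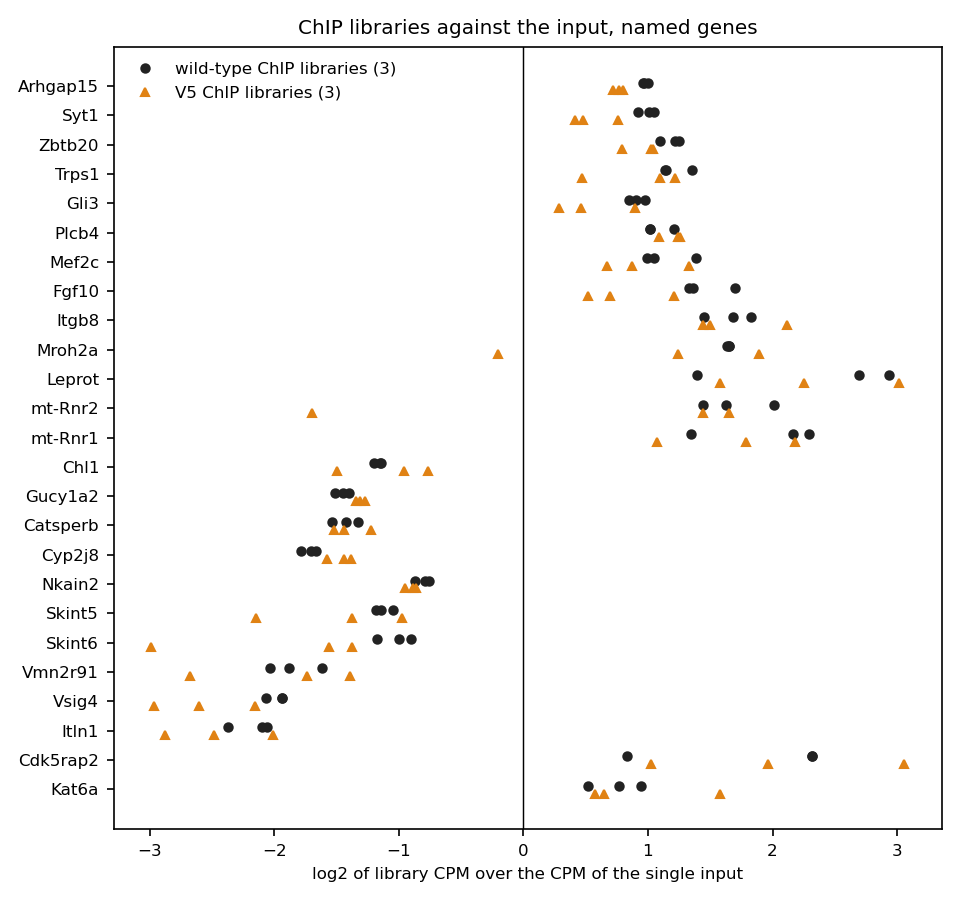
ChIP libraries over input for named genes, as the log2 ratio of CPM to the single input (x axis) for each gene (y axis), with the 3 wild-type and the 3 tagged ChIP libraries as separate points. Arhgap15, Syt1, Zbtb20 and Trps1 have all 3 wild-type points above the input, Gucy1a2 and Catsperb have all 3 below it, and the points of Cdk5rap2 spread widely.

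Among the genes that fell, Chl1 (chromosome 6, 103510584 to 103733038), a neural cell adhesion molecule, took an extreme share of every library. It held 26890, 27063 and 25945 CPM in the ChIP replicates against 59676 CPM in the input, where it made up 5.97% of all counts. Its density was 269 CPM per kb in the input and 120 on average in the wild-type ChIP, against medians below 1 over all genes. The log2 fold change was -1.14 (SE 0.05, adjusted p = 2.11e-13), but with the tagged libraries in the fit the adjusted p was 0.539; the tagged libraries ran from 21201 to 35052 CPM. Chl1 overlaps 4 other genes. A gene with no symbol, GeneID 100861531, held 799, 848 and 587 CPM against 2501 CPM, at a log2 fold change of -1.72 (SE 0.14, adjusted p = 1.08e-07).

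The largest drops came at lower counts, and those with a position overlapped no other gene. GeneID 100503691, which has no symbol, held 12.4, 4.52 and 14.0 CPM against 71.4 CPM in the input (log2 fold change -2.73, SE 0.53, adjusted p = 0.00615, and 0.0587 without replicate 1). Itln1, a lectin of the intestine that binds microbial sugars, held 23.3, 22.6 and 18.8 CPM against 96.9 CPM (log2 fold change -2.15, SE 0.40, adjusted p = 0.00384). Cyp4a30b, of the cytochrome P450 family, held 6.98, 18.1 and 13.6 CPM against 57.0 CPM, with a spread among its ChIP values and an adjusted p of 0.0380 (0.125 without replicate 1). Other genes among the 10 largest drops were 1700128F08Rik, GeneID 100861596 (no symbol), Vmn2r87, Pifo and Serpinb9h. Their log2 fold changes were -2.33, -2.13, -2.06, -2.03 and -1.98. None of these genes passed without replicate 1.

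Lower calls that held up with all 7 libraries were led by Gucy1a2. Gucy1a2 (chromosome 9, 3532349 to 3905791), a subunit of the soluble guanylate cyclase that senses nitric oxide, held 439, 406 and 426 CPM in the wild-type libraries against 1160 CPM in the input. It overlaps no annotated gene, and all 6 ChIP libraries, tagged ones included, lay between 406 and 480 CPM. Its log2 fold change was -1.43 (SE 0.13, adjusted p = 1.01e-06, and 0.000222 with all 7 libraries). Catsperb, part of the sperm calcium channel, held 244, 261 and 226 CPM against 656 CPM (log2 fold change -1.40, SE 0.16, adjusted p = 2.43e-05). Gpr158, an orphan receptor gene chosen after its values were seen, held 420, 466 and 478 CPM against 1021 CPM, a log2 fold change of -1.14 (SE 0.14, adjusted p = 4.16e-05).

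The other genes called lower with all 7 libraries in the fit, also chosen after their values were seen, were Cyp2j8, Ccdc7b, Gm20752, Ccdc7a, Gm7133, Asb3, Gm7135, Myo3a, Cpq, Ube2e2, Sntg1 and Nkain2. Most of these spans are long: Sntg1, a syntrophin gene, held 972, 1035 and 1040 CPM against 1829 CPM in the input (log2 fold change -0.82, SE 0.11). Nkain2, a membrane protein that interacts with the sodium pump, held 1275, 1382 and 1348 CPM against 2335 CPM (log2 fold change -0.78, SE 0.11, adjusted p = 0.00024). Over these 12 genes the mean wild-type density ran from 0.720 CPM per kb in Myo3a, a myosin gene, to 1.40 in Ccdc7a, and the input density from 1.58 to 3.81 in the same 2 genes.

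Promoter sequence was compared through the 250 bases before a transcript start of each gene, from RefSeq's table of GRCm38.p6, which held a window for 10404 of the 13003 tested protein-coding genes. The motif counted was CG, read on one strand because its reverse complement is again CG. Windows with 2 or fewer CG were 29.0% of all 32851 windows. For each gene the median over its windows was taken, and 11.2% of the tested protein-coding genes with a window had 2 or fewer CG by that median. Genes that rose had a median of 13 CG per window against 14 for all tested genes, with 105 of 131 genes covered. Genes that fell had a median of 3, and 46.1% of those with a window had 2 or fewer CG by the median over their windows. Coverage was alike in the 3 groups (80.0% of all tested genes, 80.2% of those that rose and 79.1%, 102 of 129, of those that fell). Because the last is under the 80% required here, the check is void for the genes that fell and their values are a description only. The letters show a low CG number in Catsperb and Cyp2j8, and a high one in Gucy1a2, which fell as well. Windows are printed for the 3 genes with the smallest p in each direction that had one, and for Cyp2j8 and Vsig4, chosen after their values were seen; CG is in capitals.
Arhgap15: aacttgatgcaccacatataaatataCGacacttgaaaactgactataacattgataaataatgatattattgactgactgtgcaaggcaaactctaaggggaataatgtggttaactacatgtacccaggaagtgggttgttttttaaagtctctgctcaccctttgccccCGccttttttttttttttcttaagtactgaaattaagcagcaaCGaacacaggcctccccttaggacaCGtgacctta
Zbtb20: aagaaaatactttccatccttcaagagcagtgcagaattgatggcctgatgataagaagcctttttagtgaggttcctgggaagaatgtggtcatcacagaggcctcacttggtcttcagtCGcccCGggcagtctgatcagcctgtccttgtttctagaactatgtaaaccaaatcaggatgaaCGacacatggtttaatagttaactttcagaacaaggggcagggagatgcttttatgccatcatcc
Syt1: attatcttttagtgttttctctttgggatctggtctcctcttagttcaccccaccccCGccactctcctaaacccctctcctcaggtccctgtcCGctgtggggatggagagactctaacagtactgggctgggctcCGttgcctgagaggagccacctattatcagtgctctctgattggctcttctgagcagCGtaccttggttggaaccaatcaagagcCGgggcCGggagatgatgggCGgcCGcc
Chl1: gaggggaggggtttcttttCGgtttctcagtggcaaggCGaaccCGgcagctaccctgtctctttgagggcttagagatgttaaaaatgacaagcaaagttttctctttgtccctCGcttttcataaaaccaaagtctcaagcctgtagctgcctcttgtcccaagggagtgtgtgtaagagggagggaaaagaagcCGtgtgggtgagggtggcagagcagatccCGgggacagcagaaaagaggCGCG
Gucy1a2: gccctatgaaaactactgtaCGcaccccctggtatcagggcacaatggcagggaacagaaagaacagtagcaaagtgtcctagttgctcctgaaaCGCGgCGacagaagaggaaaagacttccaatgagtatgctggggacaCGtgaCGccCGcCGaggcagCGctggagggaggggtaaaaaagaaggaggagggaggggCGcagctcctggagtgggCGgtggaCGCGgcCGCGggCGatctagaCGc
Catsperb: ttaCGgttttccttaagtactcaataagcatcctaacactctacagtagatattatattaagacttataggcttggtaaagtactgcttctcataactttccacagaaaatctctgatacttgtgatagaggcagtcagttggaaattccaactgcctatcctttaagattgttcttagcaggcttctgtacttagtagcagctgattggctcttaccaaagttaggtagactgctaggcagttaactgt
Cyp2j8: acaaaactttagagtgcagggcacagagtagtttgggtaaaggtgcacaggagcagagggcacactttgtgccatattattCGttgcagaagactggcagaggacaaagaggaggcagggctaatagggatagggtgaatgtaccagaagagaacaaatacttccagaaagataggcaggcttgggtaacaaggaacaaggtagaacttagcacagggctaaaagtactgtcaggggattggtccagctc
Vsig4: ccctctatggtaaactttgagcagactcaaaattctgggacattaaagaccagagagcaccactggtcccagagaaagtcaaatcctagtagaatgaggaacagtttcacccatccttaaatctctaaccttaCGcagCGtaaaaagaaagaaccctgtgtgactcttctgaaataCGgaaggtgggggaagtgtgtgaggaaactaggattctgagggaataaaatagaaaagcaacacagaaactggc
The windows lie at chr2:43748574-43748823 (plus strand), chr16:43247034-43247283 (plus), chr10:109010976-109011225 (minus), chr6:103510626-103510875 (plus), chr9:3532099-3532348 (plus), chr12:101404423-101404672 (plus), chr4:96507398-96507647 (minus) and chrX:96293439-96293688 (minus). Those of Zbtb20 and Chl1 lie wholly inside the annotated span of the gene, and those of Arhgap15, Syt1 and Catsperb run a short way into it.

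Measured as density, the medians of the called genes lay further from those of all tested genes in the input than in the wild-type ChIP. The called groups were chosen on this contrast with the single input, so an extreme input value favours a call and their densities are a description. The 157 genes that fell had median densities of 0.957, 0.988 and 1.00 CPM per kb in the wild-type libraries, close to the 0.916, 0.921 and 0.931 of all genes tested. In the input the same genes had a median of 2.33, against 0.933 for all genes tested. The 139 genes that rose had a median input density of 0.601, and 1.06, 1.06 and 1.11 in the wild-type libraries. The wild-type medians of these genes also lay above those of all genes tested. In the tagged ChIP libraries, which had no part in choosing the genes, the median densities were 0.872, 0.940 and 1.02 for the genes that fell and 0.988, 0.940 and 1.00 for those that rose. The input did have a part in the choice, so a difference between it and the tagged libraries in these genes is also a description only.

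**Figure D2:**
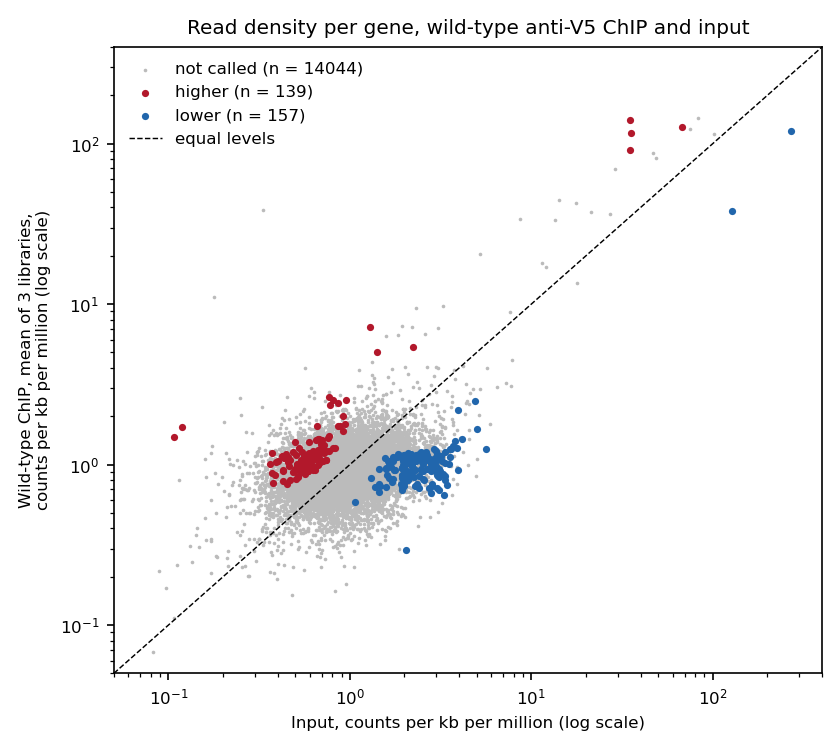
Read density of each of the 14340 genes, with the input on the x axis and the mean of the 3 wild-type ChIP libraries on the y axis (counts per kb of gene and per 1e+06 counts, log axes), and the dashed line at equal levels. Genes called lower lie to the right of the line (input median 2.33) and genes called higher to its left (input median 0.601).

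Without regard to calls, the spread of density between the quartiles and in the upper tail was also wider in the input, over the 2272 tested genes longer than 100 kb. The ratio of the upper to the lower quartile of density was 1.34, 1.34 and 1.32 for wild-type ChIP against 1.63 for the input. Densities above 2 times the library's own median were seen in 19, 15 and 7 of these genes after wild-type ChIP against 100 (4.40%) in the input. The lower tail was not wider: densities below the median divided by 2 were seen in 27, 37 and 17 genes against 25 (1.10%) in the input. Tagged ChIP libraries gave quartile ratios of 1.53, 1.42 and 1.24, so replicate 1 of that group came closer to the input. Depth differs between these libraries, and its part in the spread was not tested.

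From 3 kb upward, the median fold change of the tested genes was higher in each longer class. Of the 499 tested genes longer than 300 kb, 66 rose (13.2%, against 0.969% of all genes) and 26 fell (5.21%, against 1.09%). In all 3 libraries 309 lay above the input (61.9%, against 26.4% of all genes). Without wild-type replicate 1 the counts that rose and fell were 7 and 9, and with all 7 libraries 3 and 7. Of the 1773 genes of 100 to 300 kb, 49 rose and 43 fell. Between 30 and 100 kb, 15 of 5050 genes rose and 71 fell, and between 10 and 30 kb, 5 of 6120 rose and 17 fell. None of the 873 tested genes of 3 to 10 kb passed the test in either direction, and 317 of them lay below the input in all 3 libraries against 146 above it. The median log2 fold change went from -0.24 at 3 to 10 kb to -0.08 at 10 to 30 kb, 0.03 at 30 to 100 kb, 0.22 at 100 to 300 kb and 0.30 above 300 kb. Longer genes hold more counts, so a change of a given size passes the test more easily in them, in either direction.

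At the other end, 25 tested genes were shorter than 3 kb, and the 4 of them that rose were the mitochondrial genes described further on. Genes annotated as pseudogenes without transcription made up 54 of the tested genes, of which 0 rose and 1 fell (1.85%, against 1.09% of all genes). Their median log2 fold change was -0.46. Transcribed pseudogenes are annotated apart. Of 83 tested, 0 rose and 4 fell (4.82%, against 1.09% of all genes), with a median log2 fold change of -0.17. Most pseudogenes of both kinds (436 and 391 in the count table) held too few counts to be tested. Among 852 tested long non-coding RNA genes, 4 rose (0.469%, against 0.969% of all genes) and 14 fell (1.64%, against 1.09%).

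As shares of all counts, genes longer than 300 kb took 1.08, 1.09 and 1.12 times their input share in the 3 wild-type libraries. Genes of 3 to 10 kb took 0.93, 0.94 and 0.93 times their input share. The shortest class went the other way: the 3573 genes of up to 1 kb took 1.74, 1.86 and 2.22 times their input share, and the 9 of them that were tested had a median log2 fold change of 1.31. Of those 9, 8 are mitochondrial genes. Genes of 30 to 100 kb took 0.966, 0.970 and 0.969 times their input share, and those of 100 to 300 kb, Chl1 included, 0.9998, 0.993 and 0.974 times. Chl1 alone held 208194 of the 1103748 input counts of the 100 to 300 kb class, which was not summed without it. Gene by gene, the tested genes of that class had a median log2 fold change of 0.22, and 47.9% lay above the input in all 3 libraries. In the tagged ChIP libraries genes of 3 to 10 kb took 1.04, 1.13 and 1.01 times their input share. The ratio of reads in autosomal genes of 1 to 10 kb to reads in genes above 100 kb, with Chl1 and Cdk5rap2 left out, was 0.822, 0.830 and 0.816 times that of the input (mean 0.823, SD 0.00744). In the tagged ChIP libraries this ratio was 0.939, 1.06 and 0.927 times the input. With 1 input library, an exact permutation test cannot go below 0.25, so no test was made.

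**Figure D3:**
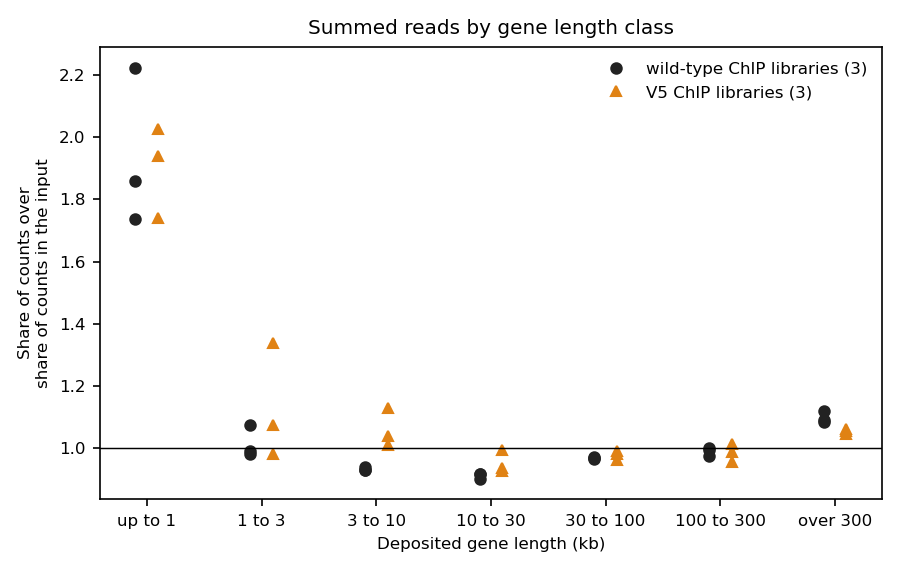
Wild-type ChIP over input by gene length class, with 1 point for each wild-type and tagged ChIP library, as its share of counts over the share in the input (y axis) for each class (x axis, kb). Genes longer than 300 kb lie above 1 in all 3 wild-type libraries (1.08, 1.09 and 1.12), and each class from 3 to 300 kb lies below 1 in them. The tagged libraries lie above 1 at 3 to 10 kb (1.04, 1.13 and 1.01).

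The lists of genes used for classes were set with earlier results of these data known, so their counts describe the lists and carry no separate evidence of direction. Genes of neuronal adhesion and synapse with a long span gave the most calls of any list: of 51 tested, 13 rose (25.5%, against 0.969% of all genes) and 1 fell, and 36 lay above the input in all 3 libraries. Nrxn3, a presynaptic neurexin, held 1463, 1477 and 1641 CPM against 971 CPM (log2 fold change 0.68, SE 0.12, adjusted p = 0.00308). Dcc, the netrin receptor, held 1063, 1152 and 1332 CPM against 707 CPM (log2 fold change 0.77, SE 0.14, adjusted p = 0.00321), and Tenm2, a teneurin, 934, 840 and 934 CPM against 515 CPM (log2 fold change 0.83, SE 0.14, adjusted p = 0.00197). The member that fell was Nkain2. The list's median log2 fold change was 0.33, against 0.30 for all tested genes longer than 300 kb, of which 13.2% rose, and 0.02 for all genes. Without wild-type replicate 1 the list had 1 gene that rose, and with all 7 libraries 0.

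Genes of the TBX1 and endothelin pathways act in the growth and patterning of the pharyngeal arches. Of 10 tested, 4 rose (40.0%, against 0.969% of all genes) and 0 fell, with a median log2 fold change of 0.59. Fgf10, a growth factor of arch mesenchyme, held 126, 100 and 98.2 CPM against 39.0 CPM, a log2 fold change of 1.49 (SE 0.33, adjusted p = 0.0166). Plcb4, the phospholipase that acts below the endothelin receptor, held 289, 252 and 253 CPM against 125 CPM, at 1.10 (SE 0.22, adjusted p = 0.00715). Mef2c, a transcription factor of this pathway, held 126, 165 and 131 CPM against 63.1 CPM (log2 fold change 1.18, SE 0.29, adjusted p = 0.0332). Gnaq, a G protein subunit that couples the receptor, held 327, 246 and 229 CPM against 148 CPM (log2 fold change 0.88, SE 0.23, adjusted p = 0.0464). None of the 4 passed without wild-type replicate 1 (adjusted p from 0.0732 for Plcb4 to 0.216 for Gnaq), and none with all 7 libraries. Plcb4, Gnaq and Mef2c have lengths of 271, 255 and 163 kb, and Fgf10 of 77.9 kb. Among all tested genes of 100 to 300 kb, 2.76% rose and the median log2 fold change was 0.22. Among those of 30 to 100 kb, 0.297% rose and the median was 0.03.

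The list for arch mesenchyme and its neural crest origin had 19 tested members, of which 1 rose (5.26%, against 0.969% of all genes). In all 3 libraries 12 lay above the input (63.2%, against 26.4% of all genes) and 1 below it (5.26%, against 29.4%). Gli3, a hedgehog pathway transcription factor, was the one that rose, with 308, 282 and 292 CPM against 157 CPM (log2 fold change 0.93, SE 0.20, adjusted p = 0.0140). The list's median log2 fold change was 0.51, and its summed share was 1.42, 1.40 and 1.41 times that of the input. Among 41 tested collagen genes, 2 rose (4.88%, against 0.969% of all genes). They were Col5a2 (227, 160 and 181 CPM against 97.2 CPM) and Col25a1 (417, 422 and 419 CPM against 255 CPM). Their log2 fold changes were 0.98 (SE 0.26) and 0.74 (SE 0.17).

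Among 38 chromatin regulators, 1 rose (2.63%, against 0.969% of all genes). It was Arid1b, a subunit of the BAF remodelling complex, with 333, 374 and 310 CPM against 206 CPM (log2 fold change 0.74, SE 0.19, adjusted p = 0.0422). In all 3 libraries 17 of the 38 lay below the input (44.7%, against 29.4% of all genes) and 8 above it (21.1%, against 26.4%). Of 322 tested zinc finger genes, 2 rose (0.621%, against 0.969% of all genes), Zfp407 and Zfp521, and 1 fell (0.311%, against 1.09%), Zfp81. Zfp81 held 22.5, 24.1 and 23.2 CPM against 99.2 CPM, one of the larger drops (log2 fold change -2.07, SE 0.38, adjusted p = 0.00414).

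Families of tandem genes differed among themselves. Of the 11 Skint genes, which encode epithelial immunoglobulin-like proteins that select skin T cells, 5 fell (45.5%, against 1.09% of all genes) and 0 rose, and 9 lay below the input in all 3 libraries. Skint5 held 577, 591 and 634 CPM against 1307 CPM (log2 fold change -1.10, SE 0.13, adjusted p = 2.43e-05), and Skint6 held 495, 599 and 562 CPM against 1120 CPM (SE of the log2 fold change 0.14, adjusted p = 0.000247). Without wild-type replicate 1, 2 Skint genes fell, and with all 7 libraries 0. The summed density of the family was 1.14 in the wild-type ChIP and 2.37 in the input. Tagged libraries ranged widely here, with 667, 503 and 295 CPM for Skint5, and the adjusted p with all 7 libraries was 0.643.

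Of 115 tested vomeronasal receptor genes, which encode pheromone receptors, 11 fell (9.57%, against 1.09% of all genes) and 0 rose. The number that fell was 1 without wild-type replicate 1, 17 without replicate 2 and 0 with all 7 libraries. Vmn2r91 held 42.7, 51.2 and 38.3 CPM against 157 CPM (log2 fold change -1.82, SE 0.31, adjusted p = 0.00185). The family's summed share was 0.65, 0.69 and 0.68 times the input's. Of 73 tested cytochrome P450 genes, 4 fell (5.48%, against 1.09% of all genes). This number was 2 without wild-type replicate 1, 7 without replicate 2 and 1 with all 7 libraries. Among the 4 was Cyp2j8, with 64.4, 66.3 and 61.1 CPM against 210 CPM (log2 fold change -1.69, SE 0.26, adjusted p = 0.000892). Of 25 tested olfactory receptor genes, 1 fell (4%, against 1.09% of all genes). It was Olfr687 (adjusted p = 0.0127, and 0.0653 without replicate 1). In all 3 libraries 9 of the 25 lay above the input (36%, against 26.4% of all genes) and 8 below it (32%, against 29.4%). The summed share of all 1126 olfactory receptor genes was 1.57, 1.55 and 1.83 times that of the input. Tested killer-cell lectin-like receptor genes and genes of the prolactin, CEACAM and PSG families, with 0 calls, had median log2 fold changes of 0.81 and 1.11. The second median was 0.61 without wild-type replicate 1. Summed shares rose less: 0.940, 1.14 and 1.30 times the input's for the first group and 1.15, 1.22 and 1.15 times for the second. These families hold near-identical copies, and how reads with more than one match were counted is not given in the sources used here.

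**Figure D4:**
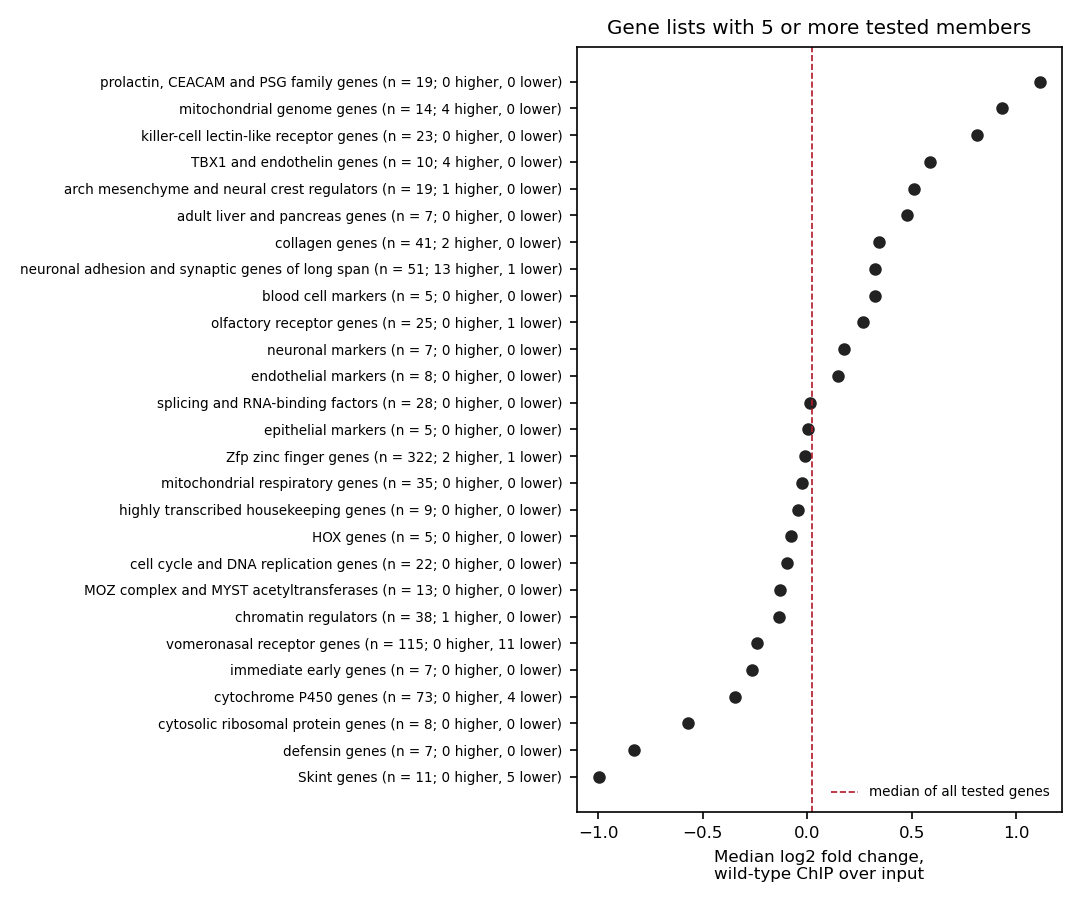
Log2 fold change of wild-type ChIP over input (x axis), with 1 point for the median of each gene list of 5 or more tested members (y axis) and a dashed line for the median of all tested genes. The TBX1 and endothelin list has a median of 0.59, and the lists of MOZ complex genes and chromatin regulators lie near 0 (-0.13 and -0.14).

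In 16 lists with at least 5 tested members and 0 calls by edgeR, 17 of 208 genes had an unadjusted p below 0.05, or 8.17% against 11.3% of all tested genes. DESeq2 called 2 of these genes, Trp63 and Cps1, and limma-voom called 6. The lists were the MOZ complex, splicing factors, housekeeping genes, immediate early genes, cell cycle genes, mitochondrial respiratory genes, HOX genes, defensins, killer-cell lectin-like receptors, prolactin and related genes, adult liver and pancreas genes, ribosomal protein genes, and markers of blood, endothelium, epithelium and neurons. Of 89 ribosomal protein genes in the count table, 8 held enough counts to be tested. Of these 8, 6 lay below the input in all 3 libraries (75%, against 29.4% of all genes), with a median log2 fold change of -0.57. A high count in the deep input helps a short gene to be tested, so this direction is a description only. The summed share of all 89 was 0.848, 0.746 and 0.874 times that of the input. Kat6a itself, which carries the tag only in the tagged embryos, held 103, 117 and 87.0 CPM against 60.8 CPM, with an adjusted p of 0.303. Cdk5rap2, a centrosomal protein gene with an extreme pile-up of reads, held 8102, 8101 and 2897 CPM against 1627 CPM, so replicate 3 stood apart from the other two, and its log2 fold change of 2.00 did not pass (SE 1.01, adjusted p = 0.676).

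On the autosomes, 130 of 13476 tested genes rose and 129 fell. Of 14 tested mitochondrial genes, 4 rose (28.6%, against 0.969% of all genes): mt-Rnr2, mt-Rnr1, COX1 and ND5. The number that rose was 1 without wild-type replicate 1 and 0 with all 7 libraries. The ribosomal RNA gene mt-Rnr2 held 153, 173 and 227 CPM against 56.2 CPM (log2 fold change 1.74, SE 0.29, adjusted p = 0.00142), and mt-Rnr1 held 151, 85.1 and 164 CPM against 33.5 CPM (log2 fold change 2.02, SE 0.36, adjusted p = 0.00318). COX1, a subunit of cytochrome c oxidase, held 115, 111 and 198 CPM against 53.9 CPM (log2 fold change 1.42, SE 0.33, adjusted p = 0.0232), and ND5, a subunit of complex I, held 222, 202 and 272 CPM against 124 CPM (log2 fold change 0.93, SE 0.23, adjusted p = 0.0346). The mitochondrial share of counts was 0.126, 0.112 and 0.168% after wild-type ChIP against 0.0661% in the input, or 1.91, 1.70 and 2.54 times. All 14 genes are on a circular genome of high copy number, so their values share one source. In the tagged libraries mt-Rnr2 held 17.4, 153 and 176 CPM, and the mitochondrial share was 1.04, 2.03 and 1.82 times that of the input.

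On chromosome X, 3 of 518 genes rose (0.579%, against 0.969% of all genes) and 19 fell (3.67%, against 1.09%). In all 3 libraries 206 lay below the input (39.8%, against 29.4% of all genes) and 65 above it (12.5%, against 26.4%). Without wild-type replicate 1, 0 rose and 4 fell, and with all 7 libraries 0 passed in either direction. Wild-type replicate 2 had an X share of 2.77%, against 4.15% and 4.41% in the other wild-type libraries and 4.51% in the input (95% Wilson interval 4.49 to 4.54, counting error only). Without replicate 2, 8 genes rose and 19 fell and the median log2 fold change moved from -0.20 to -0.01. Vsig4, a complement receptor of macrophages on chromosome X, held 40.3, 36.9 and 40.3 CPM against 154 CPM (log2 fold change -1.95, SE 0.31, adjusted p = 0.00105), F8, the coagulation factor, 182, 145 and 182 CPM against 402 CPM (log2 fold change -1.21, SE 0.20), and Slc9a7, a sodium-proton exchanger, 174, 121 and 186 CPM against 392 CPM (log2 fold change -1.26, SE 0.21). Chromosome Y took 0.0185, 0.0503 and 0.0101% of wild-type ChIP counts against 0.0223% of input counts, and its genes did not pass the test: Uty, for one, held 44.2, 91.9 and 25.2 CPM against 58.2 CPM (adjusted p = 0.961). Among the wild-type libraries replicate 2 is low on chromosome X and high on chromosome Y.

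**Figure D5:**
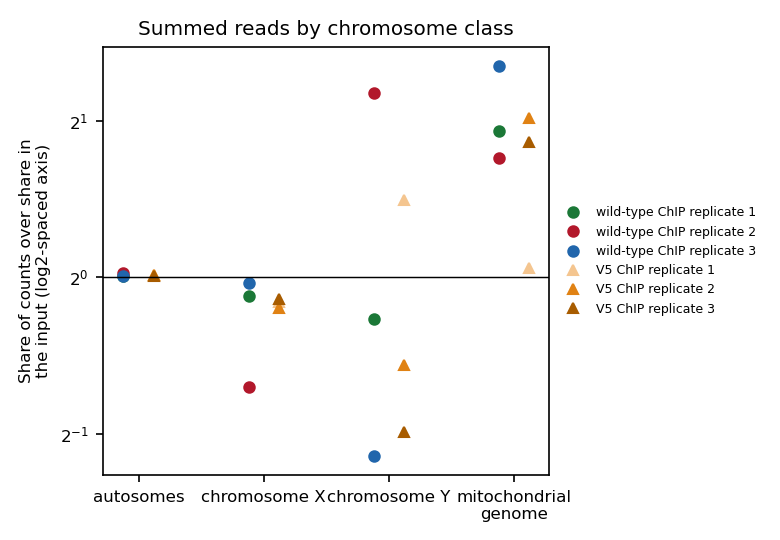
Share of counts on the autosomes, chromosomes X and Y and the mitochondrial genome (x axis) in each ChIP library, over the share in the input (y axis, log2-spaced). Mitochondrial DNA lies above 1 in all 3 wild-type libraries (1.91, 1.70 and 2.54), and replicate 2 departs from the other two on X and Y.

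The nearness of called genes to each other was counted as well, with no such share taken for all tested genes, so the counts have no baseline. Of the 148 genes that fell and had a position, 66 (44.6%) had another gene that fell within 1 Mb, and of the 137 that rose, 31 (22.6%) had another that rose within 1 Mb. Neighbouring genes with overlapping spans can share reads, and the part of such sharing in these counts was not tested.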

How the data were processed

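Anti-V5 ChIP and input DNA of mouse pharyngeal arches were sequenced. The authors deposited raw counts per gene, and the submitters' processing notes name bcl2fastq, featureCounts, MACS and the mm10 build without giving roles or versions. How multiply matching reads, strand and overlapping genes were counted is not given in the sources used here. Each of the 7 single-library tables held the same counts as its column. Gene lengths in the counts table were within 1% of RefSeq's gene span for 69.9% of named genes, so the counts of those genes cover introns as well as exons. Symbols and positions came from RefSeq (GRCm38.p6), for 25275 of 27179 genes.

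Wild-type ChIP (3 libraries) was tested against input (1 library) with edgeR 4.0.16 (R 4.3.3): quasi-likelihood test, TMM factors of 0.984 to 1.01, two-sided, with p-values adjusted by Benjamini-Hochberg across the 14340 genes and called below 0.05. SE is the log2 fold change divided by the square root of F. DESeq2 1.42.0, limma-voom 3.58.1, other filters, scalings and left-out libraries were alternatives. Scripts were tested on simulated counts. Members and gene lists were chosen with earlier results of these data known. Genes named were the 10 with the largest change and the 5 of smallest p, per direction, up to 4 of each list with the smallest p, and Chl1, Cdk5rap2 and Kat6a, with exceptions stated. For the 10 and the 5, all 3 wild-type libraries had to lie on the called side of the input. Peak calls were not analysed here.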

Additional observations from a re-analysis of the deposited data

How the results depend on the processing

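The number of genes that rose (139) was 241 with DESeq2, 412 with limma-voom and 3 with all 7 libraries in 1 fit, and 10 to 248 when each wild-type replicate was left out in turn. The number that fell (157) was 390 with limma-voom, 15 with all 7 libraries and 43 to 208 with a replicate left out. Other filters, scalings and the removal of Chl1 and Cdk5rap2 kept both counts within 1.5 times. The ratio of short-gene to long-gene reads (0.823) was 0.873 with genes of 1 to 30 kb against those above 30 kb, 0.875 with Chl1 and Cdk5rap2 kept and 0.792 over genes with 70 or more counts. Genes above or below the input in all 3 libraries (8003) came to 5185 with 200 or more counts required. Of the values of named genes under alternatives, 1513 stayed on the same side of the threshold, 105 no longer passed and 35 newly passed. The sign changed under an alternative in 0 of the 70 named genes that were called and in 10 of the 87 that were not. No paired analysis was possible because the single input shares no replicate number with a matching wild-type library. The input is 1 library of another genotype, and genes under 10 kb hold too few counts for most to be tested.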
